A study of Mus musculus with 12 samples.

Results

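The genes described here are 10 mouse genes of programmed cell death: Bcl2, Bcl2l1 and Mcl1, which encode pro-survival proteins of the BCL2 family (Bcl2l1 encodes BCL-XL); Bcl2l11 (BIM), Bbc3 (PUMA) and Pmaip1 (NOXA), which encode BH3-only proteins; Bax and Bak1, the pore-forming effectors; and Ripk3 and Mlkl, the kinase and the membrane-disrupting pseudokinase of necroptosis. They were taken by name from 55891 gene identifiers in the deposited table. All 10 were found, and all 10 were among the 13525 genes that passed the filter on low counts. RNA was sequenced from mouse bone marrow cells that had become macrophages over 6 days in 10 ng/mL M-CSF, a macrophage growth factor. Control cells had no further stimulus. Others received 100 ng/mL lipopolysaccharide (LPS, from bacterial walls) together with 10 ng/mL IFNγ over 24 h, called M1 in the labels, or 20 ng/mL IL-4 over 24 h, called M2. Each treatment was applied to Ptprz1 knockout cells (KO), which lack protein tyrosine phosphatase receptor type Z, and to wild-type cells (WT), giving 6 groups of 2 libraries and 12 libraries in all. One strain label, naming the targeted Ptprz1 strain, is attached to every sample, WT included; the groups here follow the genotype label, and WT titles start with B6. No source used here gives the age or sex of the mice, or says that 2 libraries of a group are different animals or cultures. The p-values therefore reflect only the spread among these libraries, and that spread may be technical.

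Cells can die in a regulated way through the mitochondria or at the plasma membrane. In the mitochondrial route, BAX and BAK open the outer mitochondrial membrane and release cytochrome c, which leads to caspase activation. Pro-survival proteins such as BCL2, BCL-XL and MCL1 hold BAX and BAK in check, and BH3-only proteins such as BIM, PUMA and NOXA bind the pro-survival proteins and release that restraint. In necroptosis, RIPK3 phosphorylates MLKL, which then permeabilises the plasma membrane; caspase 8 restrains this route. In macrophages, MCL1 and the A1 proteins are known survival factors, and Mlkl and Zbp1 are known interferon-induced genes. Much of the control of these proteins is by phosphorylation, degradation and binding, which RNA levels do not show.

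Total counts ran from 13665607 to 19555600 per library, and 3 counts, the limit that a count of 0 allows, correspond to between 0.138 and 0.290 CPM (counts scaled to the library total with TMM factors, which correct for differences in library composition). Macrophage markers were present in all libraries, with a summed level of 8138 to 20860 CPM over 8 genes and none at 0. Ptprz1 had counts in 1 of 6 WT and 0 of 6 KO libraries, so these data cannot check the knockout. Xist, the RNA of the inactive X chromosome, was present in 6 of 6 WT libraries (231.9 to 618 CPM) and had 0 counts in all KO libraries, and the Y-linked Ddx3y was present in 6 of 6 KO libraries (86.3 to 110.6 CPM) and had 0 counts in all WT libraries. Sex and genotype therefore cannot be told apart in any KO against WT comparison below. The libraries of each KO group differed from each other more than those of each WT group (chi-square per gene 48.4 to 54.9 against 7.10 to 15.6), and the KO libraries numbered 2 had the highest summed levels of 12 stromal and endothelial markers.

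LPS and IFNγ moved most of these genes in both genotypes. In WT cells 6 of the 10 rose (Bcl2l1, Mcl1, Bax, Bak1, Ripk3 and Mlkl) and 2 fell (Bcl2 and Bcl2l11), so that 8 of 10 were called, against 54.3% of all genes tested (27.4% higher and 27% lower). In KO cells 5 rose and 2 fell, against 53.3% of all genes called (27.2% higher and 26.1% lower). The same 7 genes (Bcl2, Mcl1, Bcl2l11, Bax, Bak1, Ripk3 and Mlkl) were called in the same direction in both genotypes. A gene counts as called when its p from the quasi-likelihood test of edgeR, adjusted by Benjamini-Hochberg over 13525 genes, is below 0.05. The median log2 fold change of the 10 genes was 0.63 in WT and 0.92 in KO cells, against −0.05 and −0.01 over all genes tested. Since most genes of the table were called, the number called among the 10 says little about them, and their sizes and directions follow.

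**Figure D1:**
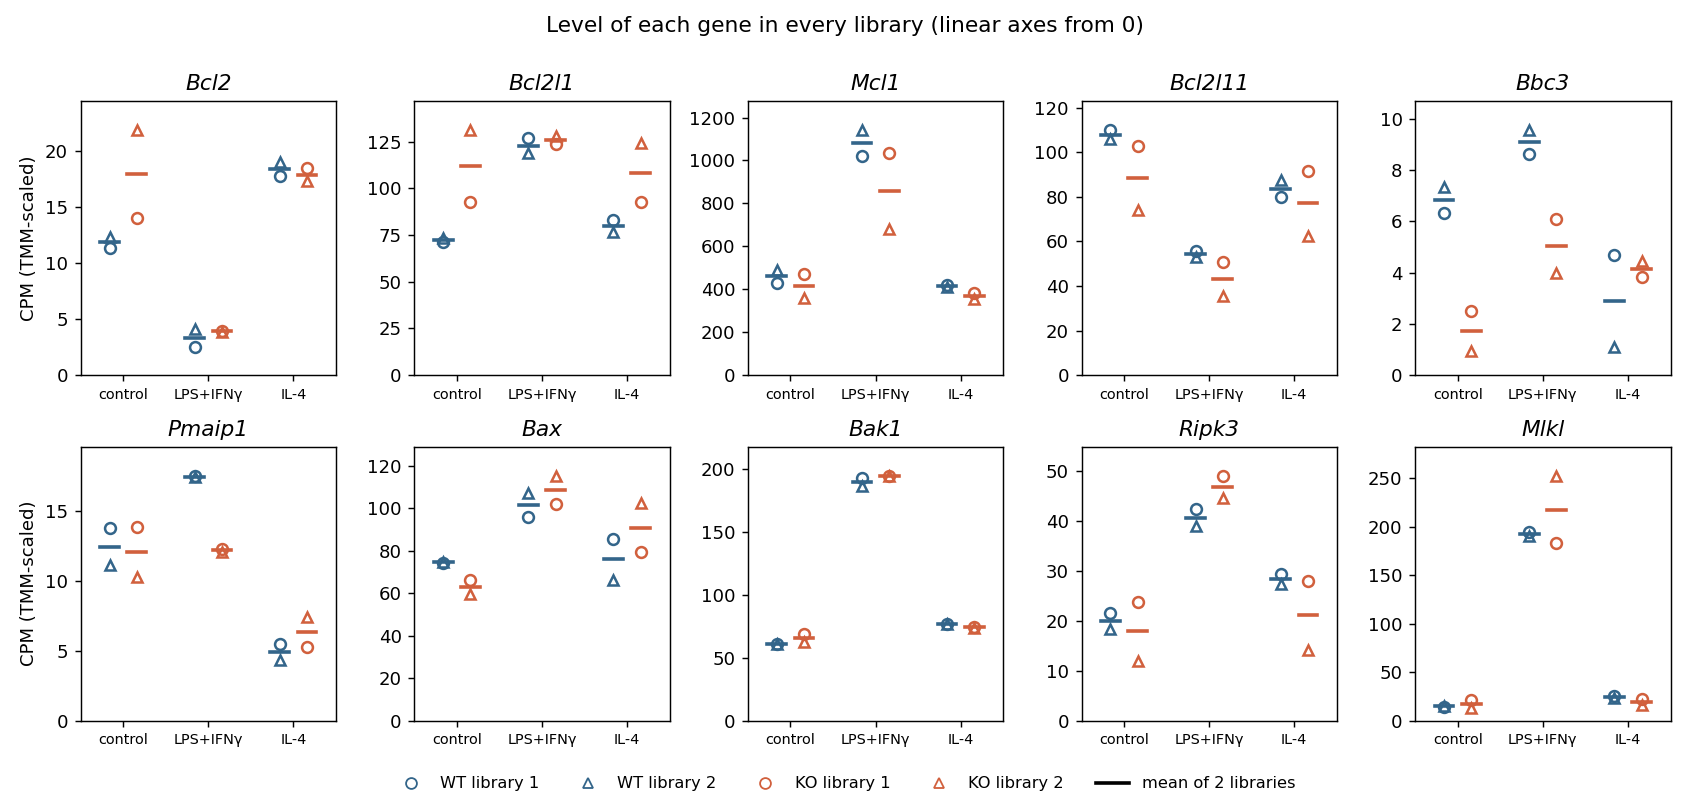
Level of each of the 10 genes (y axis, TMM-scaled CPM, linear from 0) in control, LPS+IFNγ and IL-4 treated macrophages (x axis); blue is WT, orange is KO, circles are libraries 1, triangles libraries 2, and short lines the mean of the 2 libraries of a group. Mlkl lies between 183.1 and 252.6 CPM in the 4 LPS+IFNγ libraries and between 12.8 and 24.9 CPM in the other 8, while Bcl2 lies between 2.52 and 4.13 CPM and between 11.4 and 21.8 CPM.

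**Figure D2:**
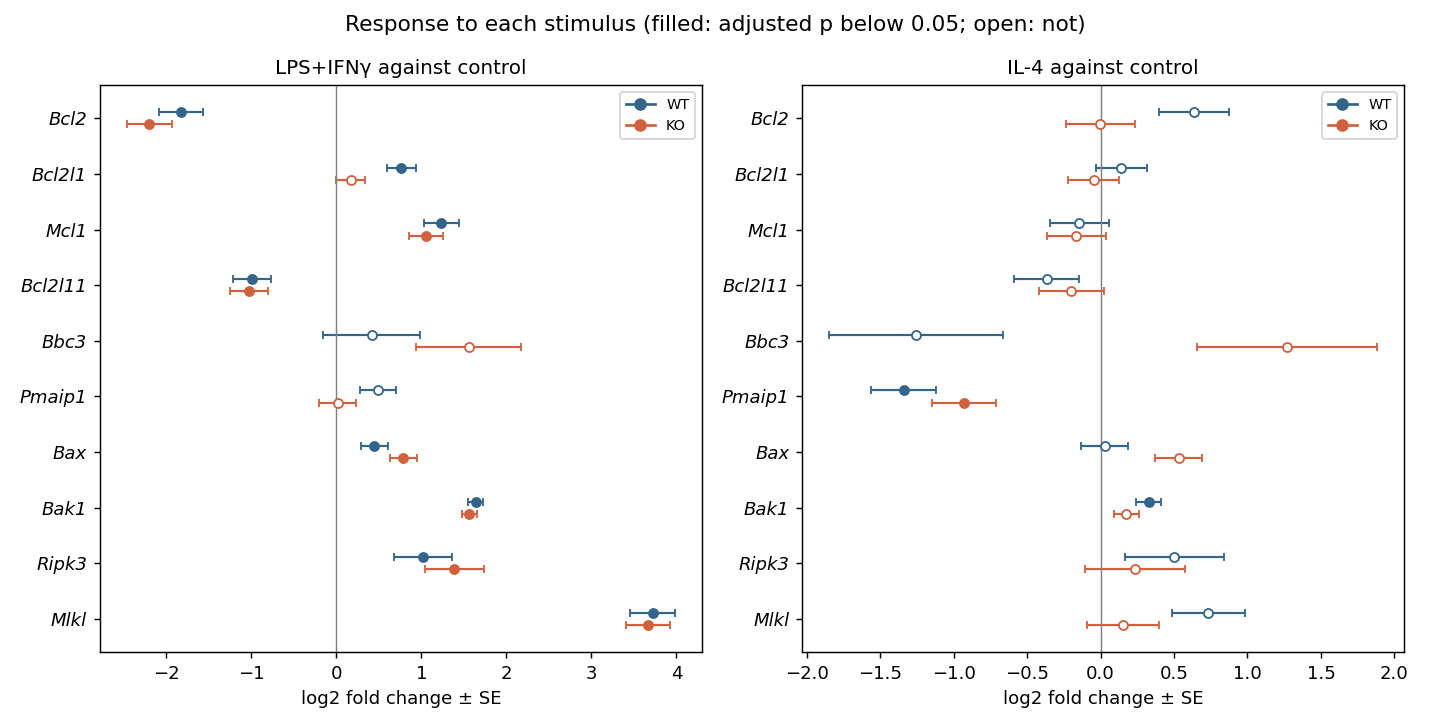
Log2 fold change (x axis, point) with its SE (bar) for each gene (y axis) under LPS+IFNγ (left) or IL-4 (right) against control, in WT (blue) and KO (orange) cells; filled points have an adjusted p below 0.05. Mlkl shows the largest rise under LPS+IFNγ in either genotype, and Pmaip1 is the gene with a filled point in both genotypes under IL-4.

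Among the pro-survival genes, Bcl2 fell and Mcl1 rose under LPS and IFNγ. Bcl2 (ENSMUSG00000057329, chromosome 1, 106538178 to 106714274, minus strand, GRCm38) measured 11.4 and 12.3 CPM in the WT control libraries and 2.52 and 4.13 CPM after LPS+IFNγ. In KO cells it measured 14 and 21.8 CPM in control and 3.92 and 3.87 CPM after LPS+IFNγ. All 4 treated libraries were thus below all 4 control libraries. The log2 fold change was −1.83 ± 0.26 (SE, n = 2 against 2; adjusted p = 2.75e-04, edgeR) in WT and −2.20 ± 0.26 (adjusted p = 9.07e-05) in KO cells. An antisense gene, D630008O14Rik, overlaps 558 exon bases of Bcl2 and had 0 counts in all libraries.

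Mcl1 (ENSMUSG00000038612, chromosome 3, 95658788 to 95663176, plus strand), whose protein is short-lived and protects many myeloid cells, was the most abundant of the 10 genes per kilobase of exon in every library, at 104 to 334 CPM per kb. It measured 428 and 490 CPM in WT control, 1023 and 1140 CPM after LPS+IFNγ, 470.5 and 358 CPM in KO control, and 1033 and 683 CPM in KO cells after LPS+IFNγ. Every treated library was above every control library, and the lowest treated value came from KO library 2. The rise was 1.24 ± 0.20 on the log2 scale in WT (adjusted p = 6.64e-04) and 1.05 ± 0.20 in KO cells (adjusted p = 0.00179).

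Bcl2l1 (ENSMUSG00000007659, chromosome 2, 152780668 to 152831728, minus strand), which encodes BCL-XL, rose in WT cells under LPS and IFNγ. Its levels were 71.0 and 73.6 CPM in WT control and 126.7 and 118.9 CPM after treatment (0.76 ± 0.17, adjusted p = 0.00453), a call lost with scaling by total counts alone (0.27, adjusted p = 0.205). In KO cells they were 92.9 and 131 CPM in control and 123.9 and 127.9 CPM after treatment. The KO control libraries thus overlapped the treated ones, and the KO response did not pass the test (0.17 ± 0.17, adjusted p = 0.443). Without the 3 KO libraries numbered 2, an alternative added after seeing the data, the KO response was 0.38 (adjusted p = 0.02), with 1 library left in each KO group that was assumed to vary like the others. The difference between the genotypes in this response did not pass the test either (interaction −0.60 ± 0.24, unadjusted p = 0.0369, adjusted p = 0.991).

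A pro-survival relative outside the 10 genes, the A1 group, has near-identical copies whose reads a counting program may split in different ways. Bcl2a1a measured 0.194 and 0.246 CPM in WT control (4 and 5 counts) and 27.7 and 31.0 CPM after LPS+IFNγ, and Bcl2a1d measured 2.58 and 3.25 CPM and then 27.0 and 29.4 CPM. Bcl2a1b, which held most of the counts, measured 133.6 and 154.4 CPM in WT control and 121.4 and 137.4 CPM after LPS+IFNγ. The sum over the 3 copies was 136.3 and 157.9 CPM in WT control, 176.1 and 197.8 CPM after LPS+IFNγ and 239.5 and 228.2 CPM after IL-4. In KO cells the sum was 172.6 and 241.4 CPM in control and 161 and 271.4 CPM after LPS+IFNγ, which overlapped. The rises of single copies are therefore uncertain.

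Of the BH3-only genes, Bcl2l11 fell and the other two did not pass the test under LPS and IFNγ. Bcl2l11 (ENSMUSG00000027381, chromosome 2, 128126038 to 128162547, plus strand), which encodes BIM, a BH3-only protein that removes myeloid cells after growth factor loss, measured 109.9 and 106 CPM in WT control and 55.5 and 52.9 CPM after LPS+IFNγ. In KO cells it measured 102.9 and 74.0 CPM, and then 50.8 and 35.6 CPM. Treated libraries were below control libraries in both genotypes, by −0.99 ± 0.22 in WT (adjusted p = 0.00424) and −1.03 ± 0.23 in KO cells (adjusted p = 0.00377).

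Pmaip1 (ENSMUSG00000024521, chromosome 18, 66458533 to 66465565, plus strand) encodes NOXA, which binds MCL1 and promotes its degradation. It measured 13.8 and 11.1 CPM in WT control, 17.5 and 17.4 CPM after LPS+IFNγ, 13.9 and 10.3 CPM in KO control and 12.3 and 12.1 CPM in KO cells after LPS+IFNγ. The WT libraries did not overlap and the KO libraries did, and neither difference passed the test (0.49 ± 0.21, adjusted p = 0.0778, and 0.01 ± 0.21, adjusted p = 0.964). With scaling by total counts alone the WT pairs overlapped, at 15.87 and 12.91 CPM in control and 14.11 and 14.49 CPM after LPS+IFNγ. Over all alternatives the WT log2 fold change ran from −0.009 to 0.64. In WT cells the call was gained without the 3 KO libraries numbered 2 (adjusted p = 0.0443) and in a fit of the 4 WT libraries compared (adjusted p = 0.0245).

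Bbc3 (ENSMUSG00000002083, chromosome 7, 16308393 to 16318205, plus strand), which encodes the p53 target PUMA, was the least precise of the 10, with 19 to 149 counts per library. It measured 6.32 and 7.34 CPM in WT control, 8.65 and 9.55 CPM after LPS+IFNγ, 2.49 and 0.926 CPM in KO control, and 6.08 and 3.97 CPM in KO cells after LPS+IFNγ. The treated libraries were above the control libraries within each genotype. With scaling by total counts alone the WT pairs overlapped, at 7.29 and 8.512 CPM in control and 6.973 and 7.951 CPM after LPS+IFNγ. The difference did not pass the test in WT (0.41 ± 0.57, adjusted p = 0.567) or KO cells (1.56 ± 0.62, adjusted p = 0.0585). In KO cells, 3 of the 7 other settings passed it, with an adjusted p of 0.0298 by DESeq2, 0.00612 without the low-count filter and 0.0372 with the replicate number as a block, and so did 3 of 12 fits that each left out 1 library (without KO control library 1, adjusted p = 0.0307, and without either WT IL-4 library, 0.0157 and 0.015).

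The effector genes Bax and Bak1 both rose under LPS and IFNγ, Bak1 by more. Bak1 (ENSMUSG00000057789, chromosome 17, 27019810 to 27029009, minus strand) had the smallest SE of the 10 genes. It measured 60.6 and 61.1 CPM in WT control and 192.9 and 186.6 CPM after LPS+IFNγ, and 68.6 and 62.7 CPM and then 194.3 and 194.1 CPM in KO cells. Treated and control libraries were far apart, at 1.64 ± 0.086 on the log2 scale in WT (adjusted p = 7.52e-07) and 1.56 ± 0.086 in KO cells (adjusted p = 1.07e-06). Exons of Ggnbp1, on the other strand, share 437 and 177 bases with Bak1 under 2 gene identifiers, which had 24 and 64 counts in all libraries together against 21580 for Bak1.

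Bax (ENSMUSG00000003873, chromosome 7, 45461697 to 45466898, minus strand) measured 74.4 and 74.4 CPM in WT control and 95.6 and 107.1 CPM after LPS+IFNγ, and 66.1 and 59.5 CPM and then 101.9 and 115.1 CPM in KO cells. The groups did not overlap, and the rise was 0.45 ± 0.16 in WT (adjusted p = 0.0378) and 0.79 ± 0.16 in KO cells (adjusted p = 0.00244). The WT call was lost without any 1 of the 4 WT control and LPS+IFNγ libraries (adjusted p = 0.0682 to 0.182). With scaling by total counts alone the Bax difference was −0.05 in WT and 0.29 in KO cells, both without a call; that scaling lowered the median of all genes by 0.497 and 0.496 on the log2 scale in these comparisons, so the Bax rise holds relative to the bulk of genes only. Gm45808 shares 192 exon bases with Bax on the same strand and had 102 counts in all, against 17871 for Bax.

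Bax and Bbc3 are textbook targets of p53, and for each a promoter stretch with a motif match is shown. The Bbc3 windows held no p53 half-site match. Bcl2l1 also had motif matches, and its stretches are not shown. Sequences are from RefSeq (GRCm38.p6) and cover 250 bases before to 50 after each annotated start; 9 of the 10 genes had an entry, with 14 start sites (Pmaip1 had none). Capitals mark the match, and each stretch is written 5′ to 3′ on the strand of the gene. The Bax stretch lies outside the gene span given above, and the Bbc3 stretch lies inside the span of Bbc3.
Bax, chr7:45467064-45467123, minus strand, p53 half-site motif in capitals: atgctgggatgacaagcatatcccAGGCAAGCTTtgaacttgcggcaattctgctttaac
Bbc3, chr7:16309418-16309477, plus strand, overlapping NF-κB motif matches in capitals: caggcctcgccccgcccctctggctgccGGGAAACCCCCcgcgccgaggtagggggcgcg
The match in Bax lies 201 to 192 bases before the start, and the matches in Bbc3, on both strands, lie 137 to 127 bases before the first of 3 RefSeq start sites, which is inside the gene span given above. A p53 half-site match was in 1 of the 14 windows and in 8.36% of 32851 promoter windows of the same length, and an NF-κB match was in 2 (Bbc3 and Bcl2l1) against 8.46%. These are matches of letters, not measured binding sites.

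The necroptosis genes both rose under LPS and IFNγ, and Mlkl rose the most of the 10 genes. Mlkl (ENSMUSG00000012519, chromosome 8, 111311797 to 111338177, minus strand) measured 14.4 and 14.8 CPM in WT control and 194.5 and 191 CPM after LPS+IFNγ. In KO cells it measured 21.4 and 12.8 CPM in control and 183.1 and 252.6 CPM after LPS+IFNγ. Every treated library was far above every control library, and the log2 fold change was 3.72 ± 0.26 in WT (adjusted p = 3.62e-06) and 3.67 ± 0.26 in KO cells (adjusted p = 4.06e-06).

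Ripk3 (ENSMUSG00000022221, chromosome 14, 55784995 to 55788865, minus strand) rose less, from 21.7 and 18.4 CPM to 42.4 and 39.0 CPM in WT and from 23.9 and 11.9 CPM to 49.1 and 44.7 CPM in KO cells. Treated libraries were above control libraries, by 1.02 ± 0.34 in WT (adjusted p = 0.0291) and 1.39 ± 0.34 in KO cells (adjusted p = 0.00727). The WT call was lost without any 1 of the 4 WT control and LPS+IFNγ libraries (adjusted p = 0.0742 to 0.141) and with scaling by total counts (0.52, adjusted p = 0.208). Ripk1, the upstream kinase that joins RIPK3 in the necrosome, measured 113.9 and 109.1 CPM in WT control and 115.6 and 113.5 CPM after LPS+IFNγ, and did not pass the test (0.04 ± 0.10, adjusted p = 0.768).

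The bases upstream of Mlkl and Ripk3 are shown because both genes rose, and none of the motifs searched was found in either.
Mlkl, chr8:111338206-111338455, minus strand: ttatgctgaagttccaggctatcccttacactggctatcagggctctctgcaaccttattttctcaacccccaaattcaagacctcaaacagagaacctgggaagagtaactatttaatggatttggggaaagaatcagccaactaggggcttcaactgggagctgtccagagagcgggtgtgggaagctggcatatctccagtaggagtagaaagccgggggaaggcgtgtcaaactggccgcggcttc
Ripk3, chr14:55788878-55789107, minus strand: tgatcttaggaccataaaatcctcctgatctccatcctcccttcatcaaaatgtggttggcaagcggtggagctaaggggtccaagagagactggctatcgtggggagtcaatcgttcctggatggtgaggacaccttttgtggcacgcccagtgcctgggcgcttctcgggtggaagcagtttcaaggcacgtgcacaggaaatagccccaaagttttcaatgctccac
Motifs were searched on both strands: the IFNγ-activated site TTCNNNGAA (8.30% of 32851 windows), the STAT6 site, TTC and GAA with 4 free bases between them (6.95%), the interferon-stimulated response element, GAAA and GAAA with 2 free bases between them (3.44%), the AP-1 site TGANTCA (7.81%), and the NF-κB and p53 half-site motifs by name. Over the 14 windows of the 9 genes, the IFNγ-activated site, the response element and the AP-1 site had 0 matches and the STAT6 site had 1, in Bcl2l1. No match says only that these letters are not in this window.

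Summed by role and per kilobase of exon, the balance within the 10 genes differed between LPS+IFNγ and the other conditions. These sums leave out relatives in the same roles, such as the A1 copies, Bid, Bad and Bmf. Mean Bid went from 8.325 CPM per kb in WT control to 18.24 after LPS+IFNγ, Bad from 7.395 to 12.83, and Bmf from 5.662 to 0.9245. With IL-4 in WT cells they were at 6.604, 7.33 and 1.464. A ratio over the whole family was not computed per library. With the A1 copies, Bid, Bad and Bmf added, the group means order the treatments differently. The ratio is then highest with IL-4 and lowest in control in both genotypes, so the order below holds for the 10 genes only. The pro-survival genes (Bcl2, Bcl2l1 and Mcl1) over the BH3-only genes (Bcl2l11, Bbc3 and Pmaip1) gave a ratio of 6.54 and 7.76 in WT control and 18.8 and 20.6 after LPS+IFNγ, and of 8.37 and 10.1 and then 24.1 and 21.2 in KO cells. Mcl1 made up 77.2% to 92.7% of the sum of Bcl2, Bcl2l1 and Mcl1 over the 12 libraries, not of all pro-survival RNA. Mean Bcl2a1b, outside that sum, exceeded mean Mcl1 per kb in unstimulated cells (176.2 against 134.3 in WT, 248.4 against 121.2 in KO). It did so with IL-4 too (280.9 against 121.5 in WT, 366.1 against 108.1 in KO). With LPS+IFNγ Mcl1 was the higher (316.5 against 158.4 in WT, 251.1 against 168.9 in KO). Bak1 made up 34.8% and 35.0% of the Bax and Bak1 sum in WT control and 56.9% and 53.3% after LPS+IFNγ. The ratio of Mlkl to Ripk3 per kb was 0.663 and 0.801 in WT control, 4.57 and 4.88 after LPS+IFNγ, and 3.71 and 5.62 in KO cells after LPS+IFNγ. These ratios restate the levels above and were not tested on their own, and ratios of RNA are not ratios of protein.

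**Figure D3:**
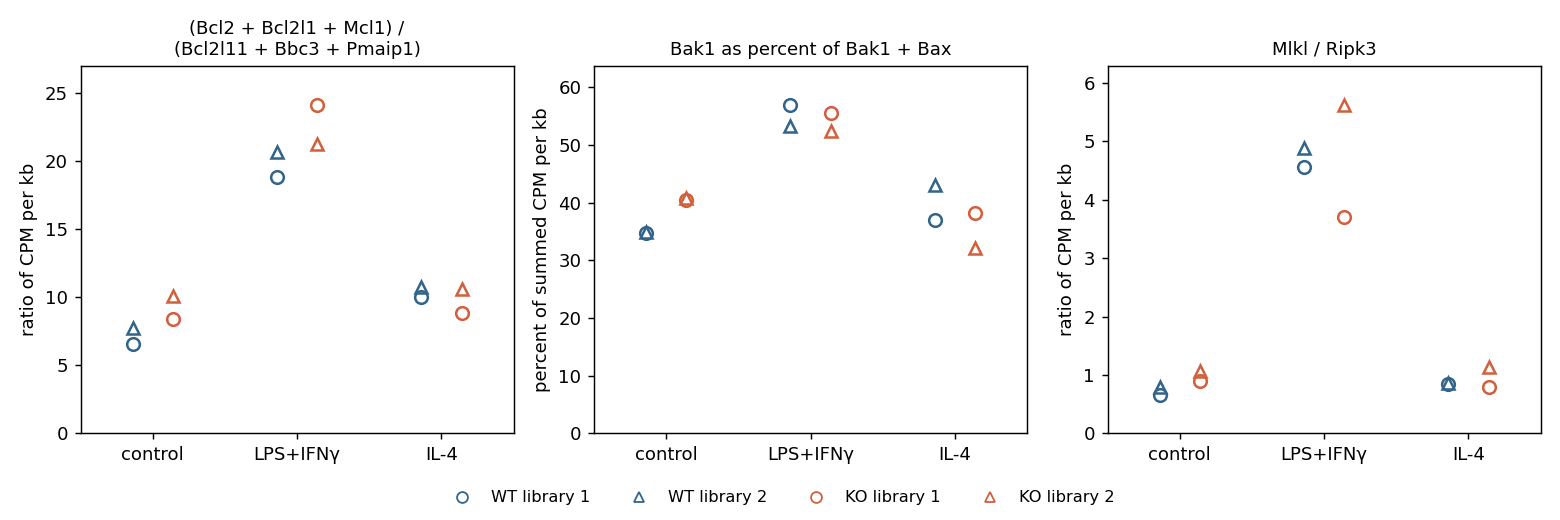
Ratios of levels per kb of exon (y axes, from 0) in each library by treatment (x axis); blue is WT, orange is KO, circles are libraries 1 and triangles libraries 2. In all 3 panels the 4 LPS+IFNγ libraries lie above the other 8. The ratio of Bcl2, Bcl2l1 and Mcl1 to Bcl2l11, Bbc3 and Pmaip1 is at least 18.8 against at most 10.7. It leaves out the A1 copies, Bid, Bad and Bmf, and with these added the group means place IL-4 above LPS+IFNγ in both genotypes.

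Markers of other cells moved with LPS and IFNγ too. The summed level of 11 granulocyte markers was 197.1 to 502.3 CPM in LPS+IFNγ libraries and 12.8 to 46.7 CPM in the others, with 2 to 8 of the 11 at 0 in a library. That difference rests on Csf3r (2.38 ± 0.43 in WT) and S100a8 (4.43 ± 0.87), while S100a9 (−2.88 ± 2.20), Ngp (−4.00 ± 2.24), Ltf (−4.13 ± 2.31) and Cxcr2 (−0.97 ± 1.55) were not called and had negative log2 fold changes. Ly6g, the defining surface marker of neutrophils, was at 0 in all 12 libraries. The sum of 8 dendritic cell markers, nearly all from Itgax, was 39.4 to 56.8 CPM in LPS+IFNγ libraries and 96.4 to 195.4 CPM in control. In a library, 0 to 5 of the 8 were at 0. Itgax was called lower (−1.947 in WT and −1.687 in KO cells), but Ccr7 was called higher (3.858 and 4.906). Zbtb46 was not called (−0.2296 and −0.6081). The sum of 8 B cell markers was 60.7 and 62.3 CPM in WT control and 4.97 and 36.6 CPM after LPS+IFNγ, and 30.4 and 32.8 CPM and then 4.66 and 1.452 CPM in KO cells, with 0 to 4 at 0. The B cell genes Cd79b, Ighm and Ebf1 were not called in WT cells, and Ighm was called lower in KO cells (−4.385). The sum of 9 erythroid and megakaryocyte markers was 49.97 to 95.8 CPM in control and 18.3 to 47.9 CPM after LPS+IFNγ, with 3 to 6 at 0. Pf4 was called lower (−1.091 in WT and −1.288 in KO cells). Ppbp (0.4411 and −0.4514) and Itga2b (1.152 and 1.256) were not called. Of the endothelial genes, Kdr went from 1.07 and 1.28 CPM to 9.40 and 12.1 CPM in WT (3.18 ± 0.66, adjusted p = 0.00268) and Cdh5 from 0.292 and 0.443 CPM to 2.66 and 2.58 CPM (2.81 ± 0.73, adjusted p = 0.00934). Their part in the results, the fall of Bcl2 included, was not tested, and in bulk samples fewer cells of a type and less RNA per cell cannot be told apart.

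IL-4 moved few of the genes. Pmaip1 fell in both genotypes, from 13.8 and 11.1 CPM in WT control to 5.47 and 4.37 CPM after IL-4 (−1.34 ± 0.22, adjusted p = 0.00806), and from 13.9 and 10.3 CPM to 5.30 and 7.39 CPM in KO cells (−0.93 ± 0.22, adjusted p = 0.0369). In both genotypes the IL-4 libraries were below the control libraries. Bak1 rose in WT cells, from 60.6 and 61.1 CPM to 76.4 and 76.4 CPM (0.33 ± 0.085, adjusted p = 0.0434), and measured 74.5 and 73.9 CPM in KO cells after IL-4, above both KO controls but without a call (0.18 ± 0.085, adjusted p = 0.235). Thus 2 of 10 genes were called in WT, against 9.04% of all genes (4.92% higher and 4.12% lower), and 1 of 10 in KO cells, against 6.86% (3.52% higher and 3.34% lower). The Pmaip1 call in KO cells was lost in 8 of 12 fits that each left out 1 library (adjusted p = 0.0527 to 0.199) and in a fit of its own 4 libraries (adjusted p = 0.232). The Pmaip1 call in WT was lost without WT control library 1 (adjusted p = 0.0846) or WT IL-4 library 2 (adjusted p = 0.0791). The Bak1 call was lost without any 1 of the 6 WT libraries (adjusted p = 0.0835 to 0.268), without the low-count filter (adjusted p = 0.199) and with scaling by total counts (adjusted p = 0.1).

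Marker levels moved with IL-4 as well. The summed dendritic cell markers were 167.8 and 159.4 CPM in WT control and 667.5 and 651.5 CPM after IL-4, and 96.4 and 195.4 CPM and then 663.2 and 612.8 CPM in KO cells, nearly all from Itgax, the integrin CD11c (2.02 ± 0.30 in WT, adjusted p = 0.00513), with 0 to 6 of the 8 markers at 0. The summed macrophage markers were 15080 and 15040 CPM in WT control and 8138 and 8485 CPM after IL-4. In KO cells they were 18780 and 14400 CPM and then 8991 and 10060 CPM, with none of the 8 at 0. In WT cells Lyz2 (−1.377), Cd14 (−2.393), Fcgr1 (−1.775) and Mertk (−0.9177) were called lower with IL-4. Cd68 (0.07104), Itgam (0.07952), Csf1r (−0.2595) and Adgre1 (−0.5564) were not called. In KO cells Lyz2, Cd14 and Fcgr1 were called lower and the others were not. The part of these markers in the IL-4 results was not tested.

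Several WT pairs under IL-4 did not overlap their control pairs yet missed the threshold. Pairs of 2 libraries often fail to overlap with no true difference, and the share of all genes that did so was not counted. Mlkl measured 24.9 and 23.8 CPM after IL-4 against 14.4 and 14.8 CPM in WT control (0.73 ± 0.25, adjusted p = 0.095), and DESeq2 called it (adjusted p = 0.0406). Bcl2 measured 17.8 and 19.0 CPM against 11.4 and 12.3 CPM (0.64 ± 0.24, adjusted p = 0.127), the opposite side of control from LPS+IFNγ. Ripk3 measured 29.4 and 27.5 CPM against 21.7 and 18.4 CPM (0.50 ± 0.34, adjusted p = 0.4), and Bcl2l11 80.0 and 87.5 CPM against 109.9 and 106 CPM (−0.37 ± 0.22, adjusted p = 0.343). In a fit of the 4 WT libraries alone, and likewise without the 3 KO libraries numbered 2, a total of 6 genes were called: Bcl2, Bcl2l11, Pmaip1, Bak1, Ripk3 and Mlkl. These fits called 27.9% and 25.6% of all genes they tested.

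The other KO values under IL-4 were 92.8 and 124 CPM for Bcl2l1, 383 and 356 CPM for Mcl1, 18.5 and 17.3 CPM for Bcl2, 91.7 and 62.5 CPM for Bcl2l11, 28.1 and 14.2 CPM for Ripk3 and 22.1 and 16.1 CPM for Mlkl. Each of these pairs overlapped the KO control pair, and none passed the test. Bax measured 79.1 and 102.6 CPM in KO cells after IL-4 against 66.1 and 59.5 CPM in KO control (0.53 ± 0.16, adjusted p = 0.0767), and 85.5 and 66.2 CPM in WT cells after IL-4, around the WT control level. Bbc3 measured 4.69 and 1.08 CPM in WT and 3.83 and 4.45 CPM in KO cells after IL-4, with no call in either (adjusted p = 0.222 and 0.239). Bcl2l1 and Mcl1 in WT cells after IL-4, at 82.9 and 76.7 CPM and 418 and 412.5 CPM, were not called.

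Set directly against IL-4, LPS and IFNγ gave 9 of 10 genes a call in WT cells (7 higher and 2 lower, all but Ripk3), against 56.2% of all genes (28.1% higher and 28.1% lower). In KO cells 7 were called (5 higher and 2 lower), against 54.9% of all genes (26.7% higher and 28.1% lower). The 6 genes called in both genotypes were Bcl2 (−2.47 and −2.20 in WT and KO), Bcl2l11 (−0.63 and −0.83), Mcl1 (1.38 and 1.22), Pmaip1 (1.83 and 0.94), Bak1 (1.31 and 1.39) and Mlkl (2.98 and 3.51). Pmaip1 was thus higher with LPS+IFNγ than with IL-4 in both genotypes, by an adjusted p of 9.49e-05 in WT and 0.00525 in KO cells; the latter was lost with scaling by total counts (0.46, adjusted p = 0.101). The KO call of Bcl2l11 was lost in a fit of its own 4 libraries (adjusted p = 0.0526), when library 2 of KO LPS+IFNγ was left out (adjusted p = 0.0815) and when library 1 of KO IL-4 was (adjusted p = 0.0901), and the KO call of Ripk3 when library 1 of KO LPS+IFNγ was left out (adjusted p = 0.0713), when library 2 of KO IL-4 was (adjusted p = 0.106) and with scaling by total counts (adjusted p = 0.112). The WT calls of Bax, Bbc3, Bcl2l11 and Bcl2l1 were each lost without some single libraries, and 5 genes were called without WT LPS+IFNγ library 1 or without WT IL-4 library 2. With scaling by total counts the WT Bax difference turned to −0.01. The WT calls of Bcl2l1 (0.19, adjusted p = 0.369) and Bbc3 (1.24, adjusted p = 0.101) were lost with it as well.

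The comparison of KO with WT cells in each state, in which sex and genotype cannot be told apart, gave no call among the 10 genes. In edgeR's test, 0 of 10 were called for KO against WT in control (0.0739% of all genes called), LPS+IFNγ (0.0591%) and IL-4 (0.0665%), and for the mean over the 3 treatments (0.170%). An unadjusted p below 0.05 was found for 3, 1, 1 and 1 of the 10 genes, and for 1011, 1119, 453 and 1532 of all 13525 genes, and DESeq2 called 0 of the 10 in each. Without the low-count filter, edgeR called Bbc3 in control (−1.99, adjusted p = 0.0189) and Bcl2l1 in the mean (0.37, adjusted p = 0.0303). Neither interaction of genotype with stimulus called any of the 13525 genes (0% of all genes), and an unadjusted p below 0.05 was found there for Bcl2l1 with LPS+IFNγ and for Bbc3 and Bax with IL-4, as for 476 and 604 of all genes. DESeq2 called 6 genes in each interaction, none of them among the 10.

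Bcl2l1 and Bbc3 had the lowest unadjusted p-values in control. Bcl2l1 measured 92.9 and 131 CPM in KO control against 71.0 and 73.6 CPM in WT control (0.63 ± 0.17, unadjusted p = 0.00509, adjusted p = 0.578), and 92.8 and 124 CPM against 82.9 and 76.7 CPM with IL-4 (0.44 ± 0.17, adjusted p = 0.98). With LPS+IFNγ the genotypes overlapped (0.04 ± 0.17). In control and IL-4 the KO library 2 was the higher one, and those libraries held summed stromal marker levels of 854.5 and 1353 CPM, against 355.1 and 344.3 CPM in the KO libraries 1 and 62.4 to 351.6 CPM in WT libraries; they were led by the collagen genes Col1a1, Col1a2 and Col3a1, 0 to 2 of the 12 were at 0, and Lum, another stromal gene, was at most 0.743 CPM. With LPS+IFNγ, KO library 2 also held the higher stromal sum (705 against 300.3 CPM in library 1), while Bcl2l1 differed little (127.9 against 123.9 CPM). The part of these markers in the Bcl2l1 values was not tested. Bbc3 measured 2.49 and 0.926 CPM in KO control against 6.32 and 7.34 CPM in WT control (−1.99 ± 0.61, unadjusted p = 0.00935, adjusted p = 0.661), on 54 and 19 against 130 and 149 counts. After IL-4 the Bbc3 libraries of both genotypes overlapped (0.53 ± 0.60), and the interaction with IL-4 was 2.52 ± 0.85 (unadjusted p = 0.0152, adjusted p = 1).

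Bcl2 in control measured 14 and 21.8 CPM in KO and 11.4 and 12.3 CPM in WT cells, pairs that did not overlap (0.60 ± 0.24, unadjusted p = 0.0314, adjusted p = 0.666). Bak1 was the tightest, at 0.11 ± 0.085 in control, 0.03 ± 0.084 in LPS+IFNγ and −0.04 ± 0.085 in IL-4. Mlkl differed by 0.23 ± 0.25, 0.18 ± 0.23 and −0.35 ± 0.24, and Ripk3 by −0.16 ± 0.34, 0.21 ± 0.34 and −0.43 ± 0.34. For Ripk3 and Mlkl, KO library 1 was above KO library 2 in control (23.9 against 11.9 CPM and 21.4 against 12.8 CPM) and in IL-4; in control the WT pairs lay between the KO libraries. Without the 3 KO libraries numbered 2, Mlkl was called in control (0.55, adjusted p = 0.0448), in a fit that assumes the lone KO library to vary like the other groups and that called 1.05% of all genes. Pmaip1 with LPS+IFNγ measured 12.3 and 12.1 CPM in KO against 17.5 and 17.4 CPM in WT cells, pairs that did not overlap (−0.52 ± 0.22, unadjusted p = 0.0387, adjusted p = 0.596). A p that misses the threshold does not show that the genotypes were alike: with 2 libraries a group, the SE of a genotype difference ran from 0.084 for Bak1 to 0.61 for Bbc3.

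**Figure D4:**
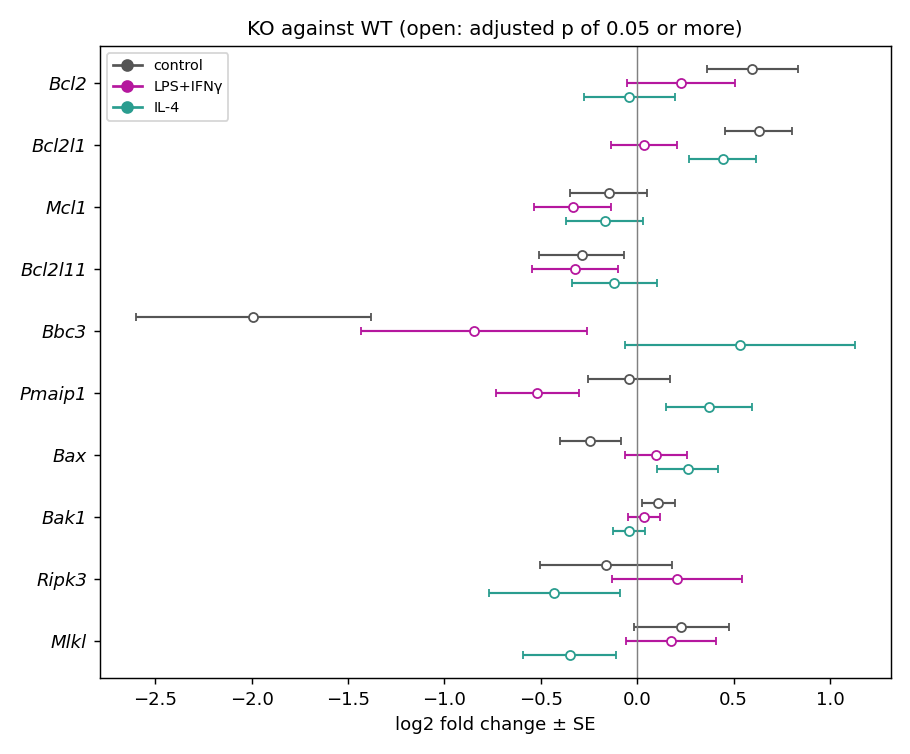
Log2 fold change of KO against WT (x axis, point) with its SE (bar) for each gene (y axis) in control (grey), LPS+IFNγ (magenta) and IL-4 (green); all points are open, as none had an adjusted p below 0.05. Bbc3 has the widest bars, and Bak1 lies within 0.11 of 0 in each treatment.

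Genes around the 10 were taken from 5 lists of the pathways. In the necroptosis and death receptor list, 18 of 29 tested genes rose and 3 fell in WT cells under LPS and IFNγ, with a median log2 fold change of 0.77, and 21 rose and 3 fell in KO cells (median 0.68). Over all genes, 27.4% were higher and 27% lower in WT (median −0.05), and 27.2% and 26.1% in KO cells (median −0.01). The list mixes activators and inhibitors of death, and both rose. Zbp1, a sensor of Z-form nucleic acid that can activate RIPK3, measured 1.94 and 1.18 CPM in WT control and 404.5 and 382.5 CPM after LPS+IFNγ (7.97 ± 0.70, adjusted p = 1.3e-05). Fas, the death receptor, measured 3.64 and 3.20 CPM and then 40.5 and 40.2 CPM (3.56 ± 0.33, adjusted p = 1.76e-05). Cflar, which encodes the caspase 8 regulator cFLIP, measured 102 and 100.9 CPM and then 1359 and 1318 CPM (3.72 ± 0.16, adjusted p = 2.99e-07), and Tnfaip3, the ubiquitin editor A20, which restrains NF-κB and RIPK3, rose by 3.48 ± 0.33. Casp8, whose protease cleaves RIPK1 and RIPK3, rose from 64.5 and 67.9 CPM to 189.5 and 183.2 CPM (1.49 ± 0.13). The 3 that fell were Stub1 (−0.80), a ubiquitin ligase, Otulin (−0.52), a linear deubiquitinase, and Map3k7 (−0.26, adjusted p = 0.0449), the kinase TAK1. In KO control, Zbp1 measured 10.96 CPM in library 1 and 1.80 CPM in library 2, the library pair in which Mlkl and Ripk3 also differed.

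Of the other BCL2 family genes, 6 of 12 tested rose and 1 fell in WT cells (median 0.46), and 5 rose and 1 fell in KO cells, against 27.4% higher and 27% lower of all genes in WT and 27.2% and 26.1% in KO cells. The 6 include Bcl2a1a and Bcl2a1d, whose rises are uncertain as described above. Bid, the BH3-only protein that caspase 8 cleaves, rose from 29.8 and 29.4 CPM to 65.2 and 64.2 CPM in WT (1.13 ± 0.25, adjusted p = 0.00422; with scaling by total counts 0.63, adjusted p = 0.0677). Bnip3, a mitochondrial relative induced by hypoxia, rose from 19.4 and 20.6 CPM to 262.4 and 216.4 CPM (3.58 ± 0.24). Bmf, another BH3-only gene, fell from 30.9 and 28.6 CPM to 4.02 and 5.69 CPM (−2.61 ± 0.37, adjusted p = 2.63e-04), and it fell with IL-4 in WT cells as well, to 8.26 and 7.12 CPM (−1.95 ± 0.35, adjusted p = 0.0115). The IL-4 call of Bmf was lost without any 1 of the 4 libraries compared (adjusted p = 0.064 to 0.0996). Bcl2l10, Bik, Hrk, Bcl2l14 and Bcl2l15 were too low in counts to be tested.

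Downstream of BAX and BAK, 5 of 14 genes rose and 4 fell in WT cells (median 0.07). In KO cells 6 rose and 4 fell, against 27.2% higher and 26.1% lower of all genes. The WT shares are near the 27.4% higher and 27% lower of all genes, so the WT counts say little about the list. It was not tested as a set. The apoptosome scaffold Apaf1 (1.30 ± 0.14) and cytochrome c, Cycs (1.08 ± 0.17), were among those that rose. Parp1, a DNA repair enzyme that caspases cleave, fell by 1.57 on the log2 scale, and Dffa (−0.64), Vdac2 (−0.40) and Aifm1 (−0.38) fell by less. With IL-4, Casp6 rose from 15.8 and 13.6 CPM to 35.4 and 33.6 CPM in WT cells (1.23 ± 0.17, adjusted p = 0.00349).

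In the list of p53 and its targets, 6 of 19 genes rose and 4 fell in WT cells (median 0.44). In KO cells 8 rose and 4 fell, against 27.2% higher and 26.1% lower of all genes. The WT shares are again near those of all genes (27.4% higher and 27% lower), and the WT counts say little about the list. The list was not tested as a set. Trp53 itself fell from 57.4 and 55.8 CPM to 36.2 and 36.5 CPM in WT (−0.64 ± 0.14, adjusted p = 0.00387). Cdkn1a, which encodes the cell cycle inhibitor p21, rose by 2.66 ± 0.17 and Mdm2, the p53 ubiquitin ligase, by 2.28 ± 0.13, and Rrm2b (0.80) and Ccng1 (0.75) rose by less, the last pair without a call under scaling by total counts (adjusted p = 0.125 and 0.0787). Sesn1 fell by 2.96, Gtse1 by 2.71 and Pidd1 by 1.82 on the log2 scale. With IL-4 in WT cells, Trp53inp1 fell (−0.70 ± 0.15, adjusted p = 0.0211). Perp was too low in counts to be tested.

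Of 13 other regulators of the members, 6 rose and 3 fell in WT cells (median 0.24), and 7 rose and 2 fell in KO cells, against 27.4% higher and 27% lower of all genes in WT and 27.2% and 26.1% in KO cells. The stress-response genes Ddit3 (CHOP, 2.45 ± 0.17), Trib3 (1.93 ± 0.40) and Atf4 (1.76 ± 0.15) rose, and Foxo4 (−1.09 ± 0.24), Foxo3 (−0.49 ± 0.11) and Huwe1 (−0.34 ± 0.13), a ubiquitin ligase of MCL1, fell in WT cells. The small falls of Huwe1, Map3k7, Dffa and Aifm1 lost their calls without any 1 of the 4 WT control and LPS+IFNγ libraries, as did that of Vdac2 without 3 of them. FOXO3 is a textbook activator of Bcl2l11 and Bbc3. Trim17, another ligase of MCL1, had 1 and 0 counts in WT control and 12 and 19 counts after LPS+IFNγ (adjusted p = 0.00644). With IL-4 in WT cells, Atf4 (0.71 ± 0.15), Ddit3 (0.69 ± 0.17) and Bag3, a co-chaperone (0.93 ± 0.25, adjusted p = 0.0498), rose. The Bag3 call was lost in 8 of 12 fits that each left out 1 library (adjusted p = 0.054 to 0.228), and those of Atf4 and Trp53inp1 without any 1 of the 4 libraries compared (adjusted p = 0.0717 to 0.165 and 0.114 to 0.141). Under KO against WT, none of the 5 lists had a called gene.

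**Figure D5:**
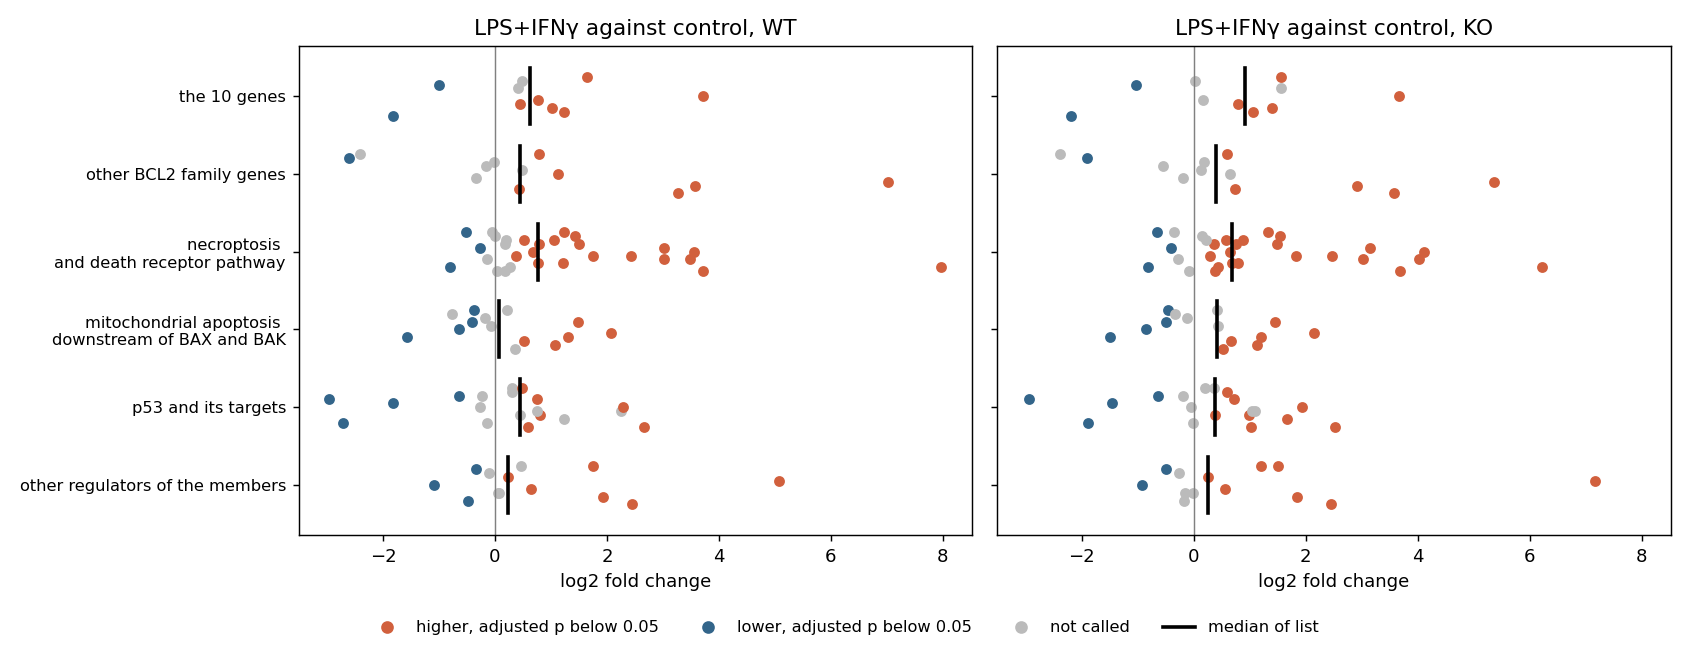
Log2 fold change under LPS+IFNγ against control (x axis) of each tested gene of the 10 genes and of the 5 lists (y axis), in WT (left) and KO cells (right); orange points were called higher, blue points lower, grey points not called, and black bars are list medians. The necroptosis and death receptor list has its median at 0.77 in WT and 0.68 in KO cells, with Zbp1 farthest to the right in WT.

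The genes whose log2 CPM followed each of the 10 most closely over the 12 libraries were taken by Pearson's r, as a description with no test, since all 12 libraries share the treatments. Bak1 was most like Tor3a (r = 0.999), Cd274, which encodes PD-L1 (0.997), and AA467197 (0.997). Mlkl was most like Casp8 (0.998), Samhd1 (0.997) and Fndc3a (0.997). Mcl1 was most like Dram2 (0.987), Msl2 (0.986) and Apaf1 (0.985), Bcl2 like Nkain1 (0.990), Plau (0.988) and Idh3a (0.987), and Bcl2l11 like Ctdsp2 (0.987), Tpcn1 (0.985) and Fam214a (0.982). Bax was most like Crlf2 (0.984), Slc39a7 (0.973) and Eif6 (0.963), and Ripk3 like Ralgds (0.967), H2-Ab1 (0.966) and Ptgir (0.962). Bbc3 was most like Apobr (0.968), Phldb3 (0.967) and Gigyf1 (0.964), Bcl2l1 like Btaf1 (0.967), Myo1c (0.960) and Spire1 (0.935), and Pmaip1 like Cd14 (0.958), Clec12a (0.957) and Dennd4a (0.955).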

How the data were processed

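The authors deposited estimated counts per Ensembl gene for the 12 libraries, all whole numbers, and they were used as they stood. Per the submitters' processing notes, FastQC 0.11.9, Salmon 1.10.2, R 4.4.1, DESeq2 1.45.3 and genome build GRCm39 were used, with no role given; no source used here gives the annotation or strand setting. Of the identifiers, 92.0% matched a symbol in GENCODE M21 (GRCm38); coordinates are GRCm38 and were not converted, and levels per kb use its exon lengths. A total of 0 sample columns were unassigned.

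Libraries were prepared from total RNA with a directional kit, per the labels' protocols. In R 4.3.3 with edgeR 4.0.16, filterByExpr kept 13525 genes, TMM factors were 0.756 to 0.833 in LPS+IFNγ libraries and 1.095 to 1.16 in others, and all 12 libraries entered a single quasi-likelihood fit with a coefficient for each of the 6 groups (two-sided F tests, 12 contrasts, threshold 0.05 after Benjamini-Hochberg adjustment). Alternatives were DESeq2 size factors, total counts, the DESeq2 1.42.0 Wald test, no filter, a replicate block, the libraries of a contrast alone, and each library left out. The 10 genes and the lists were chosen with earlier results of these data known. All 10 genes are named; list genes are named by size of change among those called (up to 4 each way in WT LPS+IFNγ, 2 each way in WT IL-4) and the nearest genes by r are the top 3, with log2 CPM at a prior count of 2. Ripk1, Casp8 and, for IL-4, Ddit3 were named after their values were seen. Some genes of the lists that the rule selects are not reported here.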

Additional observations from a re-analysis of the deposited data

How the results depend on the processing

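The number of the 10 genes called kept within 1.5 times of its value in most alternatives. The exceptions were as follows. Scaling by total counts gave 5 calls in place of 8 for WT LPS+IFNγ against control and 1 in place of 2 for WT IL-4, and turned the Bax difference to -0.050 against control and -0.014 against IL-4 in WT; it also moved the share of all called genes that were higher from 50.4% to 24.9% in WT and from 51% to 24.8% in KO cells for LPS+IFNγ against control, from 49.9% to 28.1% and from 48.7% to 25.3% against IL-4, from 54.4% to 43.7% for WT IL-4, and from 62.5% to 45.5% for KO against WT with LPS+IFNγ. In a fit of the 4 libraries compared, WT IL-4 gave 6 calls and KO IL-4 0; without the 3 KO libraries numbered 2 (added after seeing the data), WT IL-4 gave 6 and KO against WT in control gave 1. DESeq2 and the unfiltered fit each gave 2 for KO IL-4, and the unfiltered fit gave 1 for KO against WT in control and 1 in the mean. Leaving out each library in turn gave 6 to 8 calls for WT LPS+IFNγ, 7 to 8 for KO LPS+IFNγ, 0 to 3 for WT IL-4, 0 to 1 for KO IL-4, 5 to 9 for LPS+IFNγ against IL-4 in WT and 6 to 7 in KO cells, and 0 for each KO against WT and interaction contrast. For the contrasts of LPS+IFNγ with control or IL-4, the share of all genes called also moved with the library left out, mostly downwards. Those ranges are therefore not particular to the 10 genes. Over all alternatives, 84 of 2270 member values changed sign, and in 2 of these (both Bax) either fit had a call. Over all genes, WT IL-4 had 1222 calls against 1909 by DESeq2, 3475 with its own libraries, 3545 without the 3 KO libraries numbered 2, and 175 to 1637 with each library left out; KO IL-4 had 928 against 1681, 8, 1816 and 303 to 1218, and 1620 unfiltered. KO against WT in control had 10 against 71 by DESeq2, 107 unfiltered, 4 with its own libraries, 146 without the 3 libraries and 8 to 49 with each left out; with LPS+IFNγ, 8 against 34 by DESeq2, 81 unfiltered and 7 to 504; with IL-4, 9 against 19, 33 and 8 to 20, and 5 with its own libraries; in the mean, 23 against 97, 312 and 15 to 130. The interactions with LPS+IFNγ and IL-4 had 0, against 6 and 6 by DESeq2, 8 and 23 unfiltered, 54 and 26 without the 3 libraries, and up to 27 and 12 with a library left out.

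The labels do not say that replicate numbers pair samples across groups. Same-numbered libraries deviated together, with r of 0.0464 to 0.337 and above 0.1 in 14 of 15 pairs of groups, a hint from the data and not the design. With the number as a replicate block, 8 of the 10 genes were called in WT and 8 in KO cells for LPS+IFNγ against control (Bbc3 added in KO, adjusted p = 0.0372), 2 and 1 for IL-4, 8 and 7 for LPS+IFNγ against IL-4 (Bax lost in WT, adjusted p = 0.0547), and 0 for KO against WT. The block called 56.4% and 55.4% of all genes for LPS+IFNγ against control in WT and KO cells, 11.9% and 8.73% for IL-4, and 58.2% and 56.8% for LPS+IFNγ against IL-4. Over all genes the block raised the KO against WT calls from 10 to 27 in control, from 8 to 21 with LPS+IFNγ, from 9 to 36 with IL-4 and from 23 to 173 in the mean. With 2 libraries a group, precision is limited most for Bbc3, at 19 to 149 counts per library. For the mean KO against WT contrast, which uses all 12 libraries, a fit of its own libraries alone is the same fit and gives no separate value.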
